A study of Homo sapiens with 6 samples.

Results

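Protocadherins are the largest group of the cadherin superfamily, calcium-dependent adhesion proteins of the cell surface. The members described here were all gene symbols of the count table that begin with PCDH, which gave 72 of 26490 symbols. They were 15 of the alpha cluster (PCDHA), 18 of the beta cluster (PCDHB), 23 of the gamma cluster (PCDHG), 13 non-clustered genes and 3 antisense transcripts of PCDH9. By name, 2 beta members and 1 gamma member are pseudogenes, although PCDHB18P is annotated as a long non-coding RNA. RNA-seq counts came from SW403 cells, an established human colon adenocarcinoma line, in 6 libraries of total RNA. The 3 control libraries came from SW403 cells with normal IRS2 expression (genotype WT), and the 3 knockdown libraries from SW403 cells with the genotype IRS2_knockdown. All cells grew for 24 h in DMEM with 10% fetal bovine serum and received no treatment. IRS2 encodes an adaptor of the insulin and IGF1 receptors. The means of lowering IRS2, and whether each group is 1 line or several, are not given in the sources used here, so p-values measure the spread between these cultures only. Levels written with ± are the mean and SD over the 3 libraries of a group (n = 3), and log2 fold changes written with ± carry their SE.

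As background, the clustered protocadherins lie in 3 neighbouring arrays. Each alpha and gamma gene contributes its own first exon, with its own promoter, which is spliced to constant exons shared by the whole array, while beta genes have no shared exon. Combinations of clustered isoforms give neurons a surface identity used in self-avoidance, and promoter choice depends on CTCF, cohesin and DNA methylation. Non-clustered protocadherins sit at scattered places in the genome. They act in cell sorting, axon guidance and adhesion of epithelia, and several of their promoters are known to be methylated in gastrointestinal tumours.

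Totals ran from 11816973 to 12585013 counts in control and from 14329348 to 18114656 in knockdown libraries, so every knockdown library was deeper. In counts-per-million units (CPM, counts scaled to the library total), IRS2 was at 33.2 ± 1.42 in control against 12.4 ± 0.535 in knockdown. Among 13 markers of colon epithelium, KRT8 and KRT18 were at 1106 and 1131 CPM in control and CDX2 was at 77.7 CPM, while 7 markers were under 1 CPM, with no read for KRT20, CDX1 or CEACAM5 and 0.265 CPM in control for CDH1 (E-cadherin). Of 8 fibroblast markers, 4 were under 1 CPM. Their summed level was 9.56 to 28.1 CPM in control, highest in replicate 1, and 5.98 to 7.45 CPM in knockdown. Of 10 neuronal and glial markers, 7 were under 1 CPM and STMN2 had no read, and the summed level was 151 to 153 CPM in control and 134 to 142 CPM in knockdown. Immune and endothelial markers summed to 2.63 to 3.72 CPM in control and 2.75 to 3.77 CPM in knockdown, with no read for CDH5. PECAM1 had no read either, but it has no place in the annotation used here, so nothing is read from it. The part of other cell types in the results below was not tested.

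The protocadherins together took at least 95.7 CPM in each control library and at most 65.6 CPM in each knockdown library. Most members were close to silent. No read was found for 17 of the 72 in any library, which allows a level of up to 0.0347 CPM each (3 counts over the 6 libraries, counting error only), and 49 had fewer than 10 reads in all. A mean of at least 10 counts over the 6 libraries was reached by 9 members, 6 of them non-clustered and 3 of the gamma cluster, and the same 9 passed the expression filter of the test. In knockdown, 5 of these 9 were lower, 1 was higher and 3 were not called at 0.05, the threshold set on p-values from edgeR's quasi-likelihood test after adjustment over all genes. Over all 13832 tested genes 19.2% were called lower and 19.3% higher. The median log2 fold change (knockdown minus control) was -1.73 for the 9 members and -0.00 (-0.004) for all tested genes.

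Among the non-clustered genes, 5 fell by similar amounts. PCDH7, PCDH9, PCDH10, PCDH17 and PCDH20 were between 3.32-fold and 3.85-fold lower in knockdown in CPM, whereas PCDH1 was at the same level in both groups within its error. Falls of at least 3-fold past the threshold were found for 2.15% of all tested genes. Groups that did not overlap, with knockdown below control, were found for all of these 5 genes and for 28.8% of all tested genes. In bulk RNA, fewer cells of a type and less RNA per cell cannot be told apart.

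**Figure D1:**
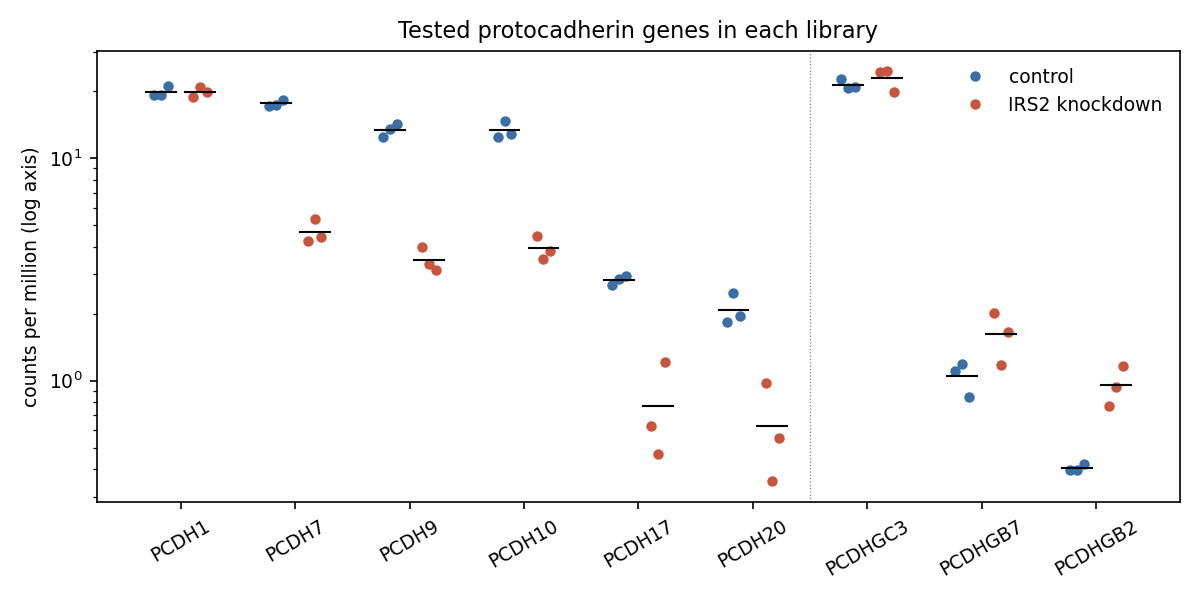
CPM (log axis) of the 9 tested protocadherin genes, one point per library, with a black bar at each group mean. Non-clustered genes are left of the dotted line and gamma genes right of it, and the groups are apart for PCDH7, PCDH9, PCDH10, PCDH17 and PCDH20 but overlap for PCDH1, PCDHGC3 and PCDHGB7.

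PCDH9, a delta-type protocadherin of the brain and other tissues, lies on chromosome 13 (GRCh37, 66876966 to 67804577, minus strand). It was at 12.5, 13.6 and 14.2 CPM in control and at 3.98, 3.34 and 3.15 CPM in knockdown replicates 1 to 3. The highest knockdown library was far below the lowest control library, and each knockdown library held 57 reads. Its log2 fold change was -1.92 ± 0.13, with an edgeR adjusted p of 9.74e-10, rank 74 of all tested genes by p. The 3 antisense genes of this locus, PCDH9-AS2, PCDH9-AS3 and PCDH9-AS4, had no read in any library. How strand was counted is not stated, so reads from the 2 strands of this locus cannot be told apart.

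PCDH7, a delta-type protocadherin known to bind protein phosphatase 1, lies on chromosome 4 (30721991 to 31148427, plus strand). Control libraries held 17.2, 17.4 and 18.3 CPM of PCDH7, and knockdown libraries 4.26, 5.33 and 4.42 CPM. The control values were within about 1 CPM of each other, and no knockdown value came near them. It had the smallest p of the members, with a log2 fold change of -1.88 ± 0.11 and an edgeR adjusted p of 1.29e-10.

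PCDH10, a delta-type protocadherin studied as a tumour suppressor silenced by promoter methylation in gastrointestinal cancers, lies on the same chromosome (134070449 to 134129761, plus strand). Control libraries were at 12.5, 14.7 and 12.9 CPM and knockdown libraries at 4.47, 3.52 and 3.81 CPM. The difference exceeded the spread in either group (log2 fold change -1.74 ± 0.13, edgeR adjusted p 3.61e-09). PCDH18, also on chromosome 4 (138440072 to 138453648, minus strand), had only 5, 3 and 9 reads in control and 1, 4 and 0 in knockdown, and was not tested.

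PCDH17 and PCDH20 were expressed at lower levels. PCDH17, a delta-type gene with roles in axon extension, held 34, 36 and 35 reads in control and 9, 8 and 22 reads in the deeper knockdown libraries. Knockdown replicate 3 was above the other two knockdown libraries and below every control library. In CPM this was 2.84 ± 0.132 against 0.770 ± 0.393, which gave -1.81 ± 0.29 on the log2 scale and an edgeR adjusted p of 6.93e-05. PCDH20 held 23, 31 and 23 reads in control and 14, 6 and 10 in knockdown. Its level of 2.08 ± 0.341 against 0.627 ± 0.319 CPM corresponded to -1.73 ± 0.33 on the log2 scale, with an edgeR adjusted p of 0.000341. Falls outnumbered rises among genes with few reads. Among tested genes with a mean under 50 counts, 24.6% were called lower and 4.04% higher, and their median log2 fold change was -0.19.

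PCDH1, a protocadherin of airway and other epithelia, was not called. It was at 19.2, 19.3 and 21.2 CPM in control and 18.8, 20.8 and 19.9 CPM in knockdown, so the groups overlapped. The log2 fold change was 0.03 with an approximate 95% interval of -0.12 to 0.17 (edgeR adjusted p 0.803), which does not reach the intervals of the other 5. The sign of this value is not fixed: with library size alone in place of TMM factors it was -0.003. PCDH1 lies on chromosome 5 (141232655 to 141258811, minus strand), beyond the clustered arrays. The remaining non-clustered genes, PCDH8, PCDH11X, PCDH11Y, PCDH12, PCDH15, PCDH18 and PCDH19, had at most 26 reads over the 6 libraries and were not tested.

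Summed over the 13 non-clustered genes, the level was 67.1, 71.7 and 72.5 CPM in control and 33.8, 34.5 and 33.7 CPM in knockdown. Without PCDH1, which held most of the reads left in knockdown, the sum went from 50.5 ± 2.41 to 14.2 ± 0.741 CPM, a ratio of 0.280. Read per kilobase of the canonical transcript, which allows genes to be compared, the control order was PCDH1 at 4.14 ± 0.239, PCDH9 at 2.16 ± 0.142, PCDH7 at 2.01 ± 0.0628, PCDH10 at 1.57 ± 0.142, PCDH20 at 0.408 ± 0.0667 and PCDH17 at 0.343 ± 0.0159 CPM per kilobase. PCDH9 and PCDH7 did not differ beyond their SD, nor did PCDH20 and PCDH17. The place of PCDH9 rests on the length used: its annotated exons together span 30944 bases against 6227 in the canonical transcript. Per kilobase of all annotated exons PCDH9 was at 0.434 ± 0.0286 CPM in control, below PCDH7 at 1.37 ± 0.0427 and PCDH10 at 1.31 ± 0.118. In knockdown PCDH1 was at 4.12 ± 0.211 CPM per kilobase, and PCDH9, PCDH7 and PCDH10 were at 0.560 ± 0.0699, 0.532 ± 0.0662 and 0.462 ± 0.0572 CPM per kilobase of the canonical transcript.

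**Figure D2:**
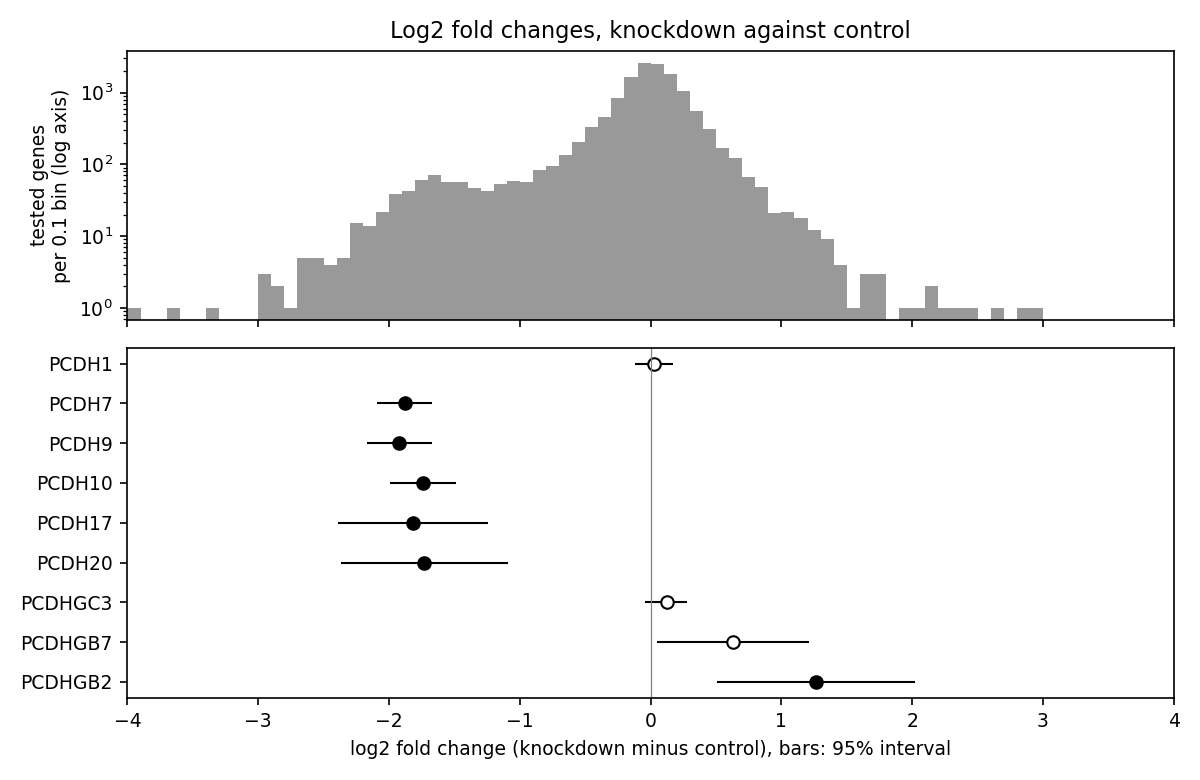
The upper panel counts all tested genes in bins of 0.1 log2 fold change (log axis), and the lower panel shows the log2 fold change of the 9 tested protocadherins with its approximate 95% interval, filled where the adjusted p was under 0.05. The 5 lowered genes lie between -1.92 and -1.73, beyond the second, smaller peak of the upper panel, whose highest bin (-1.7 to -1.6) holds 71 genes and none of the 5.

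The distribution of fold changes over all tested genes had a second, smaller peak among the falls. Counted in bins of 0.1, the number of genes dropped to 43 between -1.3 and -1.2 and rose again to 71 between -1.7 and -1.6. None of the 5 protocadherins lay in that bin. They lay beyond it, in the next 3 bins, which held 60, 43 and 39 genes. From -2 to -1.7, the range that holds all 5 protocadherins, there were 142 tested genes (1.03%), of which 96 had a mean under 50 counts. The mirror range from 1.7 to 2 held 4 genes. These ranges were set after the values were seen.

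Of the 5 lowered genes, 3 lie on chromosome 13, the chromosome of IRS2 (110405042 to 110438930): PCDH17 (58205878 to 58303445), PCDH20 (61983818 to 61989982) and PCDH9. This chromosome holds 253 of the 13314 tested genes that have a place in the annotation. Of these 253, 21.7% were called lower, near the 19.2% of all tested genes, and their median log2 fold change was 0.01. DIAPH3 and TDRD3, 2 tested genes between PCDH17 and PCDH20, were picked once their values were known. DIAPH3, a formin that nucleates actin, was slightly higher in knockdown (log2 fold change 0.14 ± 0.05, edgeR adjusted p 0.0192). TDRD3, a Tudor domain protein, was slightly lower (-0.20 ± 0.06, edgeR adjusted p 0.0156). Whether genes of this region changed together was not tested.

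The bases upstream of the annotated genes are shown for 3 of the genes that fell together, because several promoters of this family are known to be methylated in gastrointestinal tumours. They are RefSeq promoter windows (table of build GRCh38.p14) whose sequence was matched once to GRCh37, trimmed to lie outside the annotated gene and printed on the gene's strand, with every CG in capitals. The PCDH9 stretch is chr13:67804578-67804718 (minus strand), that of PCDH7 is chr4:30721741-30721990 (plus strand) and that of PCDH17 is chr13:58205628-58205877 (plus strand).
PCDH9: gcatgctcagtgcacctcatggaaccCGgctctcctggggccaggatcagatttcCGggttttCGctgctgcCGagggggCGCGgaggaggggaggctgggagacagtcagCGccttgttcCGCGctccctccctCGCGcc
PCDH7: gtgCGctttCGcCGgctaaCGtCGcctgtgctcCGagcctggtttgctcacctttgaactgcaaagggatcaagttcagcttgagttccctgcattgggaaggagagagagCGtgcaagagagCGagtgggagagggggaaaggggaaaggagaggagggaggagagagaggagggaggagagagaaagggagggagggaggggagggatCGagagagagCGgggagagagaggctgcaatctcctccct
PCDH17: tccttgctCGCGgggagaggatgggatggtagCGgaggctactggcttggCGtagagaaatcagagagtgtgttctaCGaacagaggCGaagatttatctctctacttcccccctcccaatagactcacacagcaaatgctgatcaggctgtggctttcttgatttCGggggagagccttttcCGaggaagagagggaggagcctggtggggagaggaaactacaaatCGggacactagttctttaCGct

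In the 250 bases before the RefSeq start, PCDH9 had 20 CG dinucleotides, PCDH7 had 10 and PCDH17 had 10. The median over all 35116 promoters of the table was 11, so PCDH9 alone of the 3 was well above it. PCDH10 and PCDH20 had no window among the RefSeq promoters used, so they could not be shown. Methylation was not measured in this series.

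In the gamma cluster, most reads went to 1 gene. PCDHGC3, a C-type gene at the end of the array and the gamma isoform most often found outside neurons, took 77.5% to 85.1% of the gamma reads of a library. It was at 22.7, 20.6 and 20.9 CPM in control and 24.4, 24.6 and 19.9 CPM in knockdown. Knockdown replicate 3 lay below all controls and replicates 1 and 2 above them, so neither group was uniformly higher (log2 fold change 0.12, approximate 95% interval -0.04 to 0.28, edgeR adjusted p 0.259). Without knockdown replicate 3 the value was 0.22 and passed, with an edgeR adjusted p of 0.0274. In knockdown it stood at 4.82 ± 0.549 CPM per kilobase of the canonical transcript, against 0.339 ± 0.0895 for PCDHGB7 and 0.201 ± 0.0414 for PCDHGB2.

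The other gamma genes were low. PCDHGB7 held 14, 15 and 10 reads in control and 29, 20 and 30 in knockdown, and did not pass the threshold after scaling to depth (log2 fold change 0.63, approximate 95% interval 0.05 to 1.21, edgeR adjusted p 0.103). PCDHGB2 held 5, 5 and 5 reads in control and 11, 16 and 21 in knockdown, or 0.406 ± 0.0147 against 0.955 ± 0.196 CPM. Each knockdown library was above every control library, but the share of all tested genes that rose without overlap is not given here. The control SD comes from equal counts of 5 and is below the counting error. PCDHGB2 was the 1 protocadherin called higher, with a log2 fold change of 1.26 ± 0.39 and an edgeR adjusted p of 0.0137. Its call was lost with DESeq2's Wald test (adjusted p 0.147). When knockdown replicate 2 or 3 was left out, or counts were thinned to the smallest library, PCDHGB2 fell under the expression filter and was not tested.

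PCDHGA11 was just under a mean of 10 counts, at 9.33. It held 5, 20 and 15 reads in control and 5, 6 and 5 in knockdown, where control replicate 1 was low. Tested without the low-count filter, it was lower, with a log2 fold change of -1.68 ± 0.47 and an edgeR adjusted p of 0.0018. Over the 7 fits that included it, the adjusted p ran from 0.000745 to 0.0532. PCDHGA6 (4, 1 and 6 against 6, 18 and 8 reads) and PCDHGC4 (9, 14 and 7 against 2, 9 and 7 reads) did not pass without the filter either (edgeR adjusted p 0.113 and 0.0755). PCDHGB3 had 0, 1 and 0 reads in control and 3, 3 and 3 in knockdown.

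**Figure D3:**
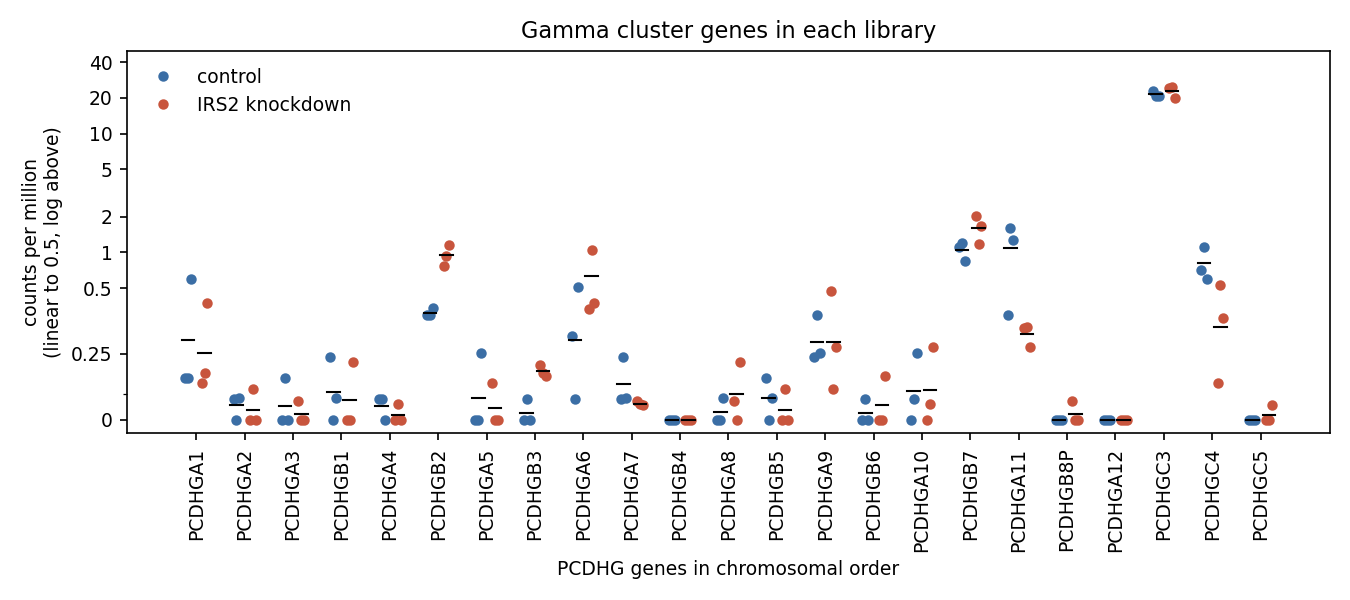
CPM of the 23 gamma cluster genes in chromosomal order, one point per library, with a black bar at the mean of each group of 3 (axis linear to 0.5, log above). PCDHGC3 stands at 19.9 to 24.6 CPM, while all other genes are at or below 2.02 CPM in every library.

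Summed over the 23 genes, the gamma cluster was at 26.7, 26.3 and 26.3 CPM in control and 29.3, 29.5 and 25.7 CPM in knockdown, a log2 ratio of 0.09. The 12 A-type genes summed to 2.51 ± 1.05 CPM in control against 1.91 ± 0.142 in knockdown, and the 8 B-type genes had a ratio of mean sums of 1.73 (knockdown over control). The B-type sums were 3.07, 2.40 and 3.37 CPM in knockdown and 1.91, 1.75 and 1.44 CPM in control libraries, while the A-type sums overlapped. Of the 209 B-type reads, PCDHGB7 held 118 and PCDHGB2 held 63. The B-type sum therefore mainly restates these genes and is not a result about the whole type. Of the exonic bases of PCDHGC3 in the annotation, 2177 (40.1%) are shared with other gamma genes, and 2177 are shared in PCDHGB2 (45.2%), PCDHGB7 (43.9%) and PCDHGA11 (37.5%). How reads in shared exons were counted is not stated, so the split of gamma reads between genes is uncertain, and the cluster sum is less exposed to it.

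A short word shared by many gamma promoters was searched for. Its place, or the nearest fit, is shown for PCDHGC3, PCDHGB7 and PCDHGB2, the 3 tested gamma genes, and for PCDHGA11 and PCDHGA6. The word was CGCTG followed, after 5 bases of any kind, by CAA, and was read off these promoters after they were seen. Both strands of the 300-base RefSeq windows (250 bases before to 50 after the start) were searched. Each line gives 30 bases on the plus strand (GRCh37), with the letters that fit the word in capitals. PCDHGC3 is chr5:140855454-140855483, PCDHGB2 is chr5:140739495-140739524, PCDHGA11 is chr5:140800546-140800575, PCDHGA6 is chr5:140753409-140753438 and PCDHGB7 is chr5:140797157-140797186.
PCDHGC3: tctgtgtgcCGCTGtcggcCAAtgaagacg
PCDHGB2: tctgagcgtCGCTGttggtCAAaagaacga
PCDHGA11: tctaggcgcCGCTGctcacCAAtcagggaa
PCDHGA6: tctaagcgtCGCTGttgacCAAcctgggca
PCDHGB7: tctgggcgcCGCcGtcggcCAgtgcagagc

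The word was found in 12 of 20 gamma windows (60.0%), in 1 of 13 alpha windows, in 0 of 14 beta windows, in 0 of 11 non-clustered windows and in 0.775% of all 35116 windows of the table. In PCDHGC3 it began 70 bases before the RefSeq start, in PCDHGA11 63, in PCDHGA6 40 and in PCDHGB2 199. PCDHGB7 had no full match. At most 6 of the 8 fixed letters fitted, equally well at 4 places in its window, and the one printed was picked because it most resembles the PCDHGC3 line. Genes with the word include PCDHGC3, with most of the gamma reads, and PCDHGB2 and PCDHGA11, with fold changes of opposite sign. Neither of these changes passed with DESeq2's Wald test (adjusted p 0.147 for PCDHGB2 and 0.0532 for PCDHGA11), and PCDHGA11 was under the filter of the main fit. Because the word was taken from gamma promoters, its share among them was partly set in advance. Looser forms of the word were not counted, so windows without it may still hold related sequence.

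The alpha and beta clusters were nearly unread. The 15 alpha genes held 8 reads in all 6 libraries together, and 10 of them had none. PCDHA10 had the most, with 1, 0 and 0 reads in control and 0, 2 and 1 in knockdown, and PCDHA3, PCDHA4, PCDHA6 and PCDHAC2 had 1 read each. The 18 beta genes held 127 reads, or 1.64 ± 0.278 CPM in control against 1.32 ± 0.139 in knockdown, and the library sums overlapped (1.91, 1.67 and 1.35 against 1.19, 1.46 and 1.32 CPM). PCDHB14, the best covered beta gene, had 6, 5 and 4 reads in control and 2, 8 and 4 in knockdown. PCDHB13 had 4, 5 and 1 against 4, 0 and 5 reads, and PCDHB12 had 2, 0 and 4 against 2, 2 and 2. The groups overlapped for all 3. PCDHB1 and PCDHB3 had no read. No alpha or beta gene had enough counts for the test, so a change in single genes was not detectable at this depth.

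The genes that choose and silence clustered promoters were taken as a list of 27. Of the 26 tested, 6 were called higher and 2 lower, and the median change was 0.07 (log2). Over all tested genes 19.3% were called higher and 19.2% lower, and the 6 of 26 called higher are near that share. LBR, the lamin B receptor, rose by 0.26 ± 0.03 on the log2 scale (edgeR adjusted p 3.29e-06). PDS5B, a cohesin regulator, rose by 0.24 ± 0.04 (edgeR adjusted p 0.000178), and REST, a repressor of neuronal genes, rose by 0.27 ± 0.05 (edgeR adjusted p 0.000352). CTCF, at 99.9 ± 2.48 CPM in control against 95.2 ± 1.57 in knockdown, did not pass (edgeR adjusted p 0.470).

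Among 27 genes for cytoplasmic and processing partners, which include the WAVE actin complex that binds protocadherin tails and the proteases that cleave gamma isoforms, 25 were tested, 6 were higher and 6 lower, with a median of 0.02, which is near the 19.3% and 19.2% called over all tested genes. CYFIP2, a WAVE complex subunit, fell from 19.0 ± 0.855 to 8.18 ± 0.441 CPM, or -1.18 ± 0.09 on the log2 scale, at an edgeR adjusted p of 5.81e-09. Its paralogue CYFIP1 rose slightly (log2 fold change 0.13, edgeR adjusted p 0.0198; named after its value was seen). The WAVE proteins WASF3 and WASF1 rose, with log2 fold changes of 0.48 ± 0.05 and 0.34 ± 0.06 and edgeR adjusted p-values of 1.04e-07 and 0.000109.

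Other cadherins of the superfamily were called in both directions. Of 21 genes listed for the FAT, Dachsous, CELSR, calsyntenin and CDHR families and their partners, 15 were tested, 5 were higher and 4 lower, with a median of 0.09, against 19.3% and 19.2% of all tested genes. With so few genes nothing particular to the list is read from these counts. CDHR1, a photoreceptor cadherin once named as a protocadherin, had 47, 41 and 37 reads in control and 17, 11 and 9 in knockdown, a change of -2.13 ± 0.28 on the log2 scale at an edgeR adjusted p of 6.16e-06. FAT4, a giant cadherin of planar polarity, fell with a log2 fold change of -1.69 ± 0.30 (edgeR adjusted p 0.000217), from 20, 28 and 24 reads in control to 11, 9 and 9 in knockdown. USH1C, harmonin, a scaffold of the cadherin links between microvilli, rose from 13.3 ± 0.636 to 21.9 ± 0.652 CPM, or by 0.75 ± 0.08 on the log2 scale, at an edgeR adjusted p of 2.89e-07. The other 2 genes called lower, outside the naming rule, were FAT3 (log2 fold change -2.28, edgeR adjusted p 0.000541) and CLSTN3 (-0.23, edgeR adjusted p 0.0224). FAT1 was at 372.8 ± 27.5 CPM in control and did not pass (log2 fold change 0.15, edgeR adjusted p 0.0579).

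Of the 7 desmosomal cadherins, 3 were tested and 2 were lower, against 19.2% of all tested genes, too few to read a pattern from. DSC3 fell from 19.5 ± 1.48 to 6.38 ± 0.346 CPM, or -1.57 ± 0.10 on the log2 scale, at an edgeR adjusted p of 3.89e-10. DSC2 fell with a log2 fold change of -0.56 ± 0.11 (edgeR adjusted p 0.000399). DSG2, the most abundant of them at 96.1 ± 5.64 CPM in control, did not pass (-0.09, edgeR adjusted p 0.104). DSG4, under the filter and singled out after its values were seen, went the other way, with 1, 3 and 3 reads in control and 11, 13 and 13 in knockdown. Without the filter its log2 fold change was 1.97 (edgeR adjusted p 0.00386), and with DESeq2's Wald test the adjusted p was 0.0628.

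**Figure D4:**
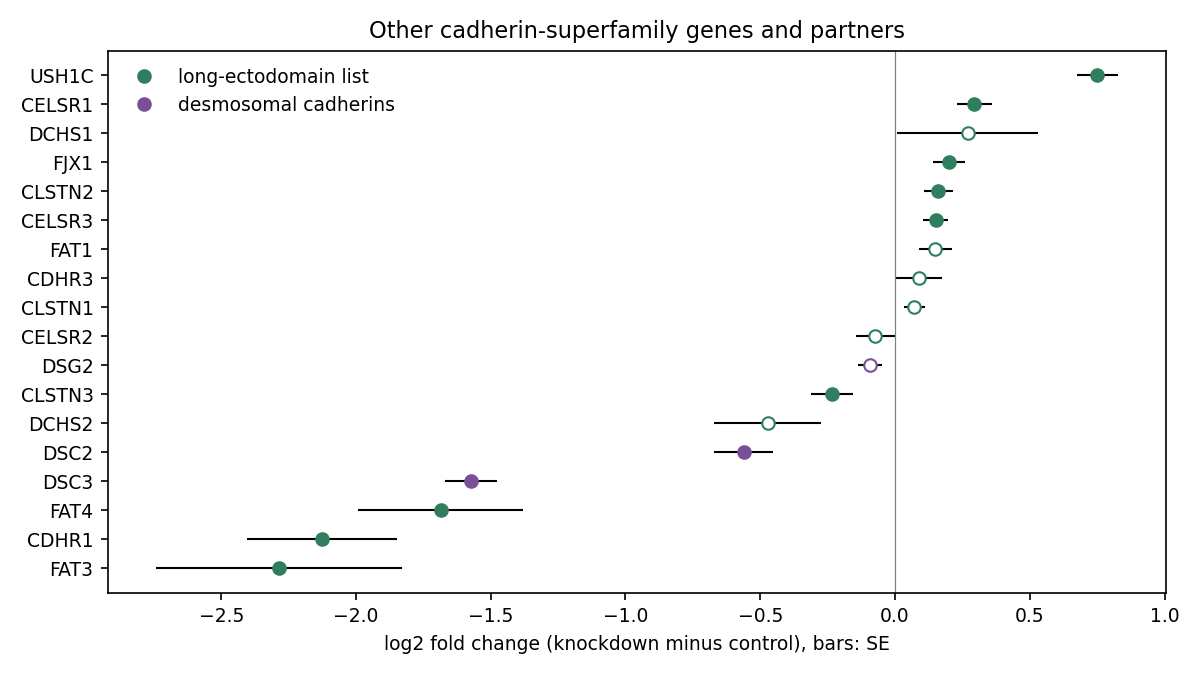
Log2 fold change (knockdown minus control) with its SE for the 18 tested genes of the long-ectodomain and desmosomal cadherin lists, filled where the adjusted p was under 0.05. FAT3, CDHR1, FAT4 and DSC3 lie between -2.28 and -1.57, and the other genes between -0.56 and 0.75.

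Among the 6 colon epithelium markers tested, 2 were called lower in knockdown and 1 higher. Of the 3 fibroblast markers tested, 2 were called lower in knockdown, against 19.2% of all tested genes, too few to read a pattern from. COL1A1 held 193, 72 and 67 reads in control and 61, 62 and 72 in knockdown (log2 fold change -1.15, edgeR adjusted p 0.0029). COL3A1 held 34, 19 and 5 against 6, 3 and 14 reads, and its groups overlapped (-1.71, edgeR adjusted p 0.0136). Without control replicate 1 these values were -0.50 (edgeR adjusted p 0.0325) for COL1A1 and -1.04 (edgeR adjusted p 0.179) for COL3A1, and without knockdown replicate 2 COL3A1 was not called either (edgeR adjusted p 0.0766). PDGFRB did not pass (-0.18, edgeR adjusted p 0.609). Of the fibroblast markers not tested, PDGFRA held 7, 11 and 7 reads in control and 3, 3 and 2 in knockdown. LUM held 7, 7 and 5 reads against 3, 4 and 3. COL1A2 held 86, 11 and 3 reads against 8, 1 and 8, and DCN 2, 1 and 3 against 0, 0 and 1. THY1 had 0, 0 and 0 reads against 0, 0 and 1. Of the 4 neuronal and glial markers tested, 1 was called: SYT1 was lower (-0.35, edgeR adjusted p 0.000461), against 19.2% called lower over all tested genes. GAP43 had a fold change of the other sign (0.89, edgeR adjusted p 0.0583), and SNAP25 (-0.33, edgeR adjusted p 0.291) and TUBB3 (-0.04, edgeR adjusted p 0.473) did not pass. Control replicate 1 was the lowest of the 3 control libraries in CPM for each of the 5 lowered protocadherins. Without it all 5 were called lower again, with log2 fold changes of -1.98 for PCDH9, -1.90 for PCDH7, -1.79 for PCDH10, -1.85 for PCDH17 and -1.82 for PCDH20. The part of fibroblast content in the protocadherin falls was not tested, and leaving out 1 library does not test it.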

How the data were processed

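Total RNA of 6 SW403 cultures was made into PCR-amplified Illumina libraries, per the labels' protocols. The authors deposited whole-number counts per gene symbol and a normalized signal, the counts divided by 1 constant per library (0.847 to 1.25). The submitters' processing notes name STAR 2.6.1a, Salmon, DESeq2 and hg19, without roles; annotation, strand setting and handling of shared reads are not given in the sources used here. Columns were matched by sample description. Positions and exons came from GENCODE lifted to GRCh37, where all 72 symbols matched, and promoters from RefSeq, where 60 of 72 did; the build matches hg19, but the annotation may differ from the one used for counting.

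The deposited counts were fitted over the whole table in edgeR 4.0.16 (R 4.3.3; TMM factors, filterByExpr, quasi-likelihood F-test, group as the only term), with Benjamini-Hochberg adjustment over 13832 genes and a threshold of 0.05. The SE of a log2 fold change was taken from F, as its size over the root of F, and approximate 95% intervals are ± 1.96 SE. With 3 against 3, an exact two-sided permutation test cannot go below 0.1. Counts were also simulated for these 13832 genes, with changes of several sizes given to 200 of them. Of those changed 2-fold or 4-fold, 97.6% were recovered, and 3.74% of all calls were false. The changed genes were drawn from all levels, so this share does not hold for members with few reads in particular.

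Values in each library were given for PCDH9, the 3 most read members of each subgroup and the largest called changes, and 3 genes by smallest p for each companion list. Members, lists and rules were chosen with earlier results of these data known. Alternatives were other scalings and filters, DESeq2 1.42.0, limma 3.58.1 (voom, and log2 of deposited values plus 1), a replicate block, leaving out each library and, added after seeing the data, thinned counts. Counting errors assume independent reads, which amplified reads are not.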

Additional observations from a re-analysis of the deposited data

How the results depend on the processing

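The 5 falls (PCDH7, PCDH9, PCDH10, PCDH17, PCDH20) were called in all 16 alternative fits, with log2 fold changes from -2.34 (PCDH17 without knockdown replicate 3) to -1.44 and adjusted p-values of at most 0.00405. The count of lower protocadherins was 5 to 6 across fits without 1 library, the added gene being PCDHGA11, and 7 without the filter and with limma on deposited values, which added PCDHGA11 and PCDH18. The 1 higher member became 0 with DESeq2's Wald test, 0 with thinned counts and 0 to 1 without 1 library; without knockdown replicate 3 the higher member was PCDHGC3, not PCDHGB2, which was then untested. Lower gamma genes went from 0 to 1 (PCDHGA11) without the filter and with limma on deposited values, and to 0 to 1 without 1 library. PCDH1 changed sign with library size alone (-0.003) and without knockdown replicate 2 (-0.007), in a range of -0.007 to 0.077 without 1 library. The summed non-clustered log2 ratio went from -1.05 to -1.84 without PCDH1, by construction.

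DESeq2's Wald test called 1654 genes lower over the whole table, against 2653. In the promoter choice list, lower genes went from 2 to 1 with DESeq2 and with thinned counts and to 1 to 3 without 1 library, and higher genes from 6 to 10 without the filter and to 4 to 10 without 1 library. Higher long-ectodomain genes went from 5 to 3 with library size alone and 2 with DESeq2, and to 3 to 6 without 1 library. Higher desmosomal genes went from 0 to 1 without the filter and with limma on deposited values, and to 0 to 1 without 1 library. The cause was not tested.

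The replicate numbers are shared by both groups, but deviations of same-numbered libraries correlated at only 0.0447, -0.0112 and -0.0981. Whether same-numbered cultures were grown or prepared together is not given in the sources used here. With the replicate block 5 protocadherins were lower and 1 higher, PCDH9 had a log2 fold change of -1.92 and PCDHGB2 an edgeR adjusted p of 0.0281. Over all genes 2407 were called lower and 2455 higher with the block. No protocadherin call changed. Depth limits the alpha and beta clusters most.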
